A study of Mus musculus with 8 samples.

Results

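The genes described here encode the DNA replication machinery, measured in myeloid progenitors of mice with normal or shortened telomeres. They were taken from a list of 49 genes: the origin recognition complex, the licensing factors, the MCM helicase and its activators, the replicative polymerases and primase, the sliding clamp and its loaders, the single-strand binding protein RPA, the Okazaki fragment enzymes, enzymes of deoxynucleotide supply, and factors that act on new chromatin. Each gene was represented by 1 probe set that carries only its symbol, the one with the highest mean signal over the 8 arrays. By that rule 48 of the 49 genes had a probe set, of 18193 genes in all. Chaf1a, a subunit of chromatin assembly factor 1, had none in the platform table used here. A signal of 50 on at least 2 arrays was required for testing, and 47 members passed, of 8886 genes in all. Tyms, thymidylate synthase, did not pass, with signals of 38.3 and 40.3 in the CMP pools of G0, 34.7 and 36 in those of G4/G5, 22.7 and 41.1 in the GMP pools of G0 and 27.8 and 31.1 in those of G4/G5, where each pair of values gives pool 1 and then pool 2, as it does throughout.

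The cells were granulocyte-monocyte progenitors (GMP) and the common myeloid progenitors (CMP) that precede them, flow-sorted from the bone marrow of male mice of a background the labels give as mainly C576BL/6. The G0 groups were TERTER/+ mice, which the labels call normal, and the G4/G5 groups were TERTER/ER mice of late generations with dysfunctional telomeres. The allele fuses telomerase reverse transcriptase to an estrogen receptor domain, so all the mice, controls included, carried at least 1 copy. Each of the 4 groups held 2 arrays, each from a pool of 4 mice of matched age and sex, with 5000 to 20000 cells per sample. The ages are not given in the sources used here, nor whether a CMP pool and a GMP pool of the same number came from the same mice. The p-values measure only the spread between these pools.

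In G1 phase, the origin recognition complex with Cdc6 and Cdt1 loads the MCM2-7 helicase onto origins, a step called licensing, and geminin blocks Cdt1 once S phase has begun. Cdc45 and the GINS complex then join MCM2-7 to form the active helicase. Polymerase alpha with primase lays primers, polymerases delta and epsilon extend them, PCNA clamps the polymerases to DNA, and Fen1 and DNA ligase 1 join the Okazaki fragments. Most of these genes are transcribed around the G1/S transition under E2F control, and myeloid progenitors of the marrow include many cycling cells.

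Signals were the authors' MAS5 intensities, scaled on each array to a target of 100, and differences are on the scale of log2(signal + 10), which makes differences of dim genes look smaller. The median signal per array was between 14.3 and 18.5, and between 31.6% and 35.2% of probe sets reached 50. In a sorted bulk sample, fewer cycling cells and less RNA of these genes per cell cannot be told apart. Transcripts of maturing neutrophils, a list of 17 genes of which 14 had a probe set, had a summed signal of 860 and 1165 for G0 and 66637 and 1144 for G4/G5 in CMP, and of 2126 and 4471 for G0 and 34701 and 38898 for G4/G5 in GMP. All 14 reached a signal of 50 in G4/G5 CMP pool 1 and 2 of them in G4/G5 CMP pool 2. The list was thus high on the first G4/G5 CMP array and on both G4/G5 GMP arrays. S100a8, a calcium-binding protein of neutrophils, gave 179 and 103 for G0 and 16783 and 44.3 for G4/G5 in CMP, and 898 and 1753 for G0 and 9762 and 10308 for G4/G5 in GMP. Summed markers of GMP, such as Elane (neutrophil elastase) and Fcgr3 (an Fc receptor), were 7027 and 14817 for G0 and 26299 and 23336 for G4/G5 in CMP, and between 32725 and 37965 on the GMP arrays. Summed markers of the megakaryocytic and erythroid branch, which CMP can enter, were between 3818 and 7483 on the CMP arrays and between 933 and 1841 on the GMP arrays. The sums of both lists thus separated the labelled cell types, though the GMP markers of G4/G5 CMP lay nearer to the GMP arrays than those of G0 CMP. Single GMP markers did not all do so. From CMP to GMP in G4/G5, 8 of the 9 tested were above 0, and Irf8 was below. Irf8 gave 593 and 1005 in G4/G5 CMP and 501 and 679 in G4/G5 GMP. Mpo overlapped, with 8825 and 11199 in G4/G5 CMP and 10015 and 10013 in G4/G5 GMP. The 7483 was that of G4/G5 CMP pool 1, where neutrophil transcripts were high too. On the first principal component, G4/G5 CMP pool 1 stood at -3.6, against -37.8 to -30.7 for the other CMP arrays and 19.3 to 33.7 for the GMP arrays.

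The promoters of 5 members are shown because they hold the letters through which these genes are known to be read together, or lack them. RefSeq promoter sequences (GRCm38.p6, 250 bases before to 50 bases after the start) matched 41 of the 49 genes, with 50 promoters. The E2F core, here TTCCCGC or TTGGCGC on either strand, was present in 25 of these 50 promoters (50%), against 12.7% of the 9352 promoters of genes tested on the array and 6.81% of all 32851 promoters. The CCAAT box, which NF-Y binds, was in 56% of the members' promoters and 37.9% of those of genes tested, and an E2F core overlapped a CCAAT box in 3 promoters of members, those of Rfc1, Mcm7 and Prim1. The cell cycle homology region, searched as TTTGAA or TTCGAA, was in 14% and 14.3%. GC content was 59.2% in the members' promoters and 60.9% in those of genes tested. A match is a description of letters and not a bound site. The sequences below are the 180 bases before the start, 5′ to 3′ on the gene's strand, with each E2F core in capitals. Pola1 (the catalytic subunit of polymerase alpha, chrX:93632156-93632335, minus strand), Mcm6 (an MCM2-7 subunit, chr1:128359706-128359885, minus strand) and Uhrf1 (which recruits the maintenance methyltransferase to new DNA, chr17:56303157-56303336, plus strand) hold 3, 2 and 1 of them. Where a gene had several promoters, the one with the most E2F cores is shown, and the other promoter of Uhrf1 holds none. Cdc45 (chr16:18811973-18812152, minus strand) and Rrm2 (the small subunit of ribonucleotide reductase, chr12:24708074-24708253, plus strand), among the members with the largest differences between the cell types, hold none in this window.
Pola1: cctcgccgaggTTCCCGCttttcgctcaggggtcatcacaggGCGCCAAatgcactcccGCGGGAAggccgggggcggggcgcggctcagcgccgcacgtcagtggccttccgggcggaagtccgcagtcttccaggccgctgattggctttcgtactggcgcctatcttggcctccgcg
Mcm6: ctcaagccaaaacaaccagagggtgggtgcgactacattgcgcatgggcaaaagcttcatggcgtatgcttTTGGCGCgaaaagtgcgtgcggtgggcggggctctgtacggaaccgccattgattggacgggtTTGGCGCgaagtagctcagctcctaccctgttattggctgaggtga
Uhrf1: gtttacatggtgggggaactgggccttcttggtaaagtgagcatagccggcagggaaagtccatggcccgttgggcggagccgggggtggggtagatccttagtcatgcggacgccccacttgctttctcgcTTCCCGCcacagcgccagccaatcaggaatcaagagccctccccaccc
Cdc45: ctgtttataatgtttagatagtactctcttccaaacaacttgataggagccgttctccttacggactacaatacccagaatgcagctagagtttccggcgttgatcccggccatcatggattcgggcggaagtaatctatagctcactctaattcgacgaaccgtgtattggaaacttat
Rrm2: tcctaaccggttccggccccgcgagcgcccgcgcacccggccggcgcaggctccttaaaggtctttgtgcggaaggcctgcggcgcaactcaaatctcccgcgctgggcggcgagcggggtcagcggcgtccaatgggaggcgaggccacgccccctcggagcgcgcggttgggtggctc

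In CMP, replication transcripts lay slightly lower in G4/G5 than in G0 across nearly all classes, but no single gene passed the test. The log2 difference was below 0 for 43 of 47 members, against 44.4% of all genes tested, with a median of -0.24 for the members and 0.04 for all genes. With limma and Benjamini-Hochberg adjustment, 0 members passed, where 1 gene (0.0113%) passed among all 8886. At an unadjusted p under 0.05 there were 8 members lower (4.72% of all genes) and 1 higher, Rfc2 (8.72%). Both G4/G5 arrays lay below both G0 arrays for 15 members (14.9% of all genes), and both lay above for 3 (21.7%), namely Orc5, Pcna and Rfc2. In GMP the picture was similar, with 42 of 47 members below 0 against 49.1% of all genes, and a median of -0.20 against 0.01. No member passed and no gene did (0%), and 4 members, Lig1, Uhrf1, Pola1 and Pold3, were lower at an unadjusted p under 0.05 (3.26% of all genes). The groups did not overlap for 32 members that lay lower in G4/G5 GMP (26.5% of all genes) and for 2 that lay higher (28.8%), Orc5 and Cdt1. Across both cell types, 39 members were below 0 in both (28.9% of all genes), and 10 lay lower without overlap in both (6.4%).

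**Figure D1:**
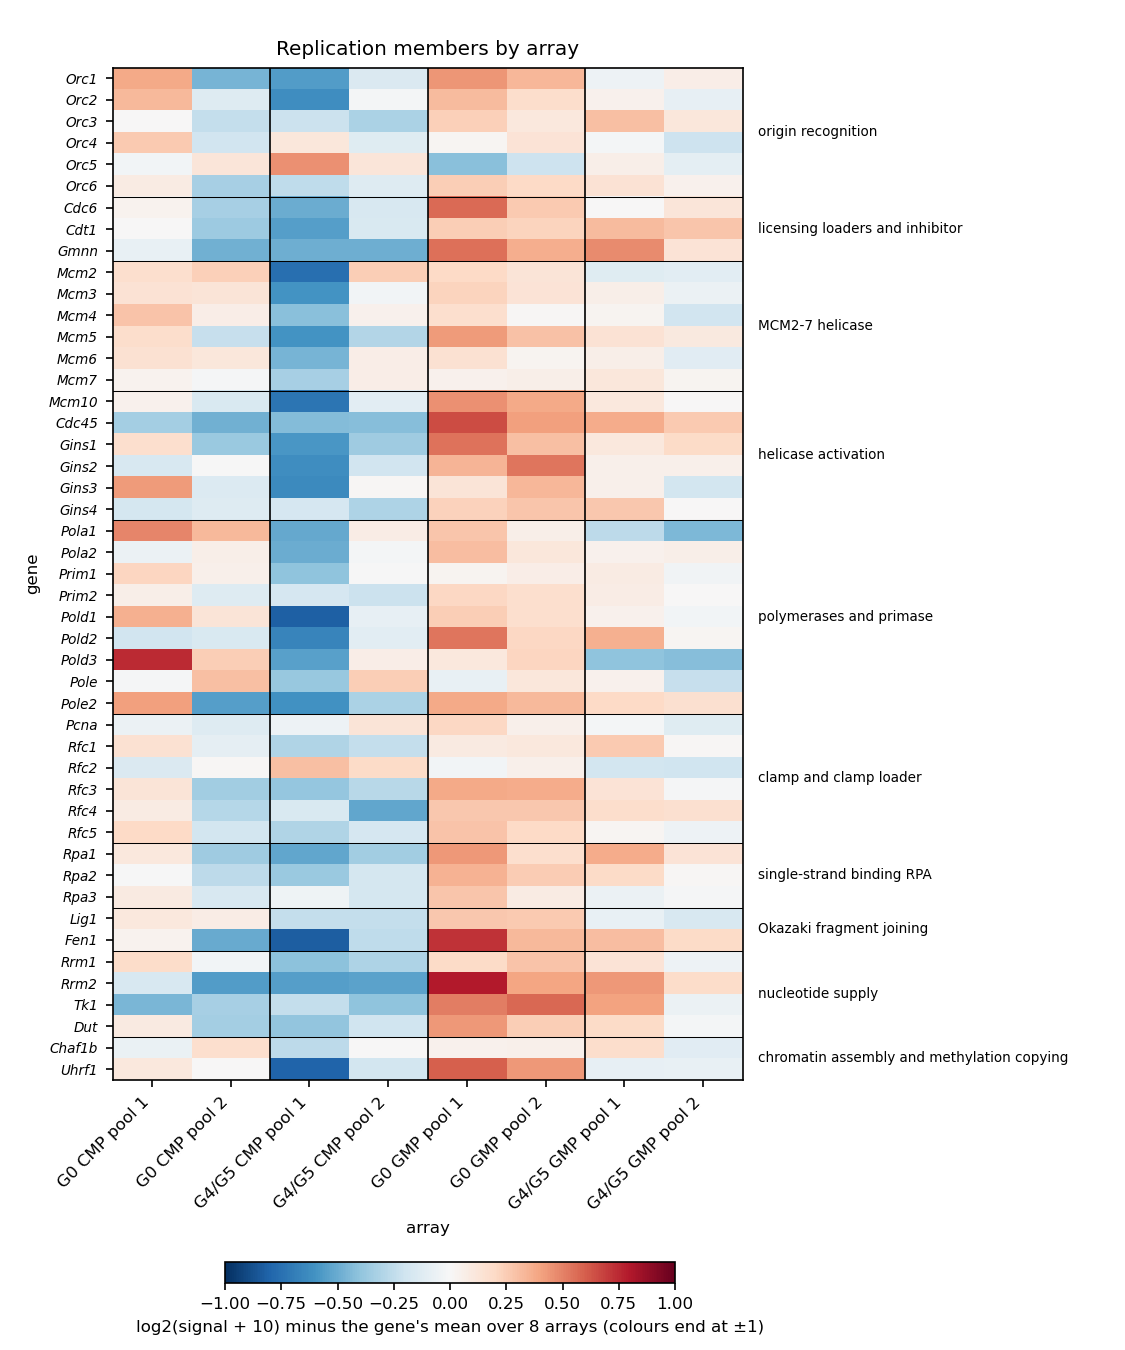
Each row is 1 of the 47 members tested, ordered by role, and each column is 1 array; colour gives log2(signal + 10) minus the gene's mean over the 8 arrays, blue for lower and red for higher. The column of G4/G5 CMP pool 1 is blue for most members, which had their lowest value there in 33 of 47 cases, and the 2 G0 GMP columns are mostly red.

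The size of the CMP difference depended on which pools were compared, which the heat map of members by array shows. G4/G5 CMP pool 1 was the lowest of the 8 arrays for 33 members, against 15.8% of all genes. Set against G0 pool 1 it was lower for 42 members with a median of -0.48, and against G0 pool 2 for 36 with -0.21. G4/G5 CMP pool 2 was lower than G0 pool 1 for 37 members with a median of -0.27. Against G0 pool 2 it was lower for 23 members and higher for 24, with a median of 0.00, where 41.8% of all genes were lower. With G4/G5 CMP pool 1 left out, 38 members were below 0 (median -0.13), and with G0 CMP pool 1 left out there were 32 (median -0.10). Without G4/G5 CMP pool 2, 7 members passed as lower (Mcm2, Mcm3, Mcm6, Pola1, Pold1, Pold3 and Uhrf1), where 4.78% of all genes passed. Markers of other cell types moved with genotype in CMP too. All 14 neutrophil markers were above 0 in G4/G5, with a median of 3.23, and the list was high on the pool 1 array alone. All 9 GMP markers were above 0, with a median of 1.29, and their summed signal was higher on both G4/G5 arrays. Single genes could overlap between genotypes, as Fcgr3, Ms4a3, Irf8 and Csf3r did. All 7 eosinophil, basophil and mast cell markers were above 0, with a median of 1.42, and summed to 2105 and 1993 for G0 and 7744 and 2558 for G4/G5. The part of these cell types in the members' difference was not tested.

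In GMP the direction was shared by all 4 pairs of pools. G4/G5 pool 1 lay lower for 38 members against G0 pool 1 and for 34 against G0 pool 2, with medians of -0.18 and -0.09. G4/G5 pool 2 lay lower for 45 and 44 members, with medians of -0.30 and -0.20. The share of all genes lower in these pairs was between 47.9% and 50.1%. Neutrophil transcripts were higher on both G4/G5 GMP arrays than on both G0 GMP arrays, so in GMP their level and the genotype cannot be told apart. All 9 megakaryocyte and erythroid markers tested were below 0 in G4/G5 GMP, with a median of -0.65, and all 9 GMP markers were above 0, with a median of 0.21; their part was not tested.

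**Figure D2:**
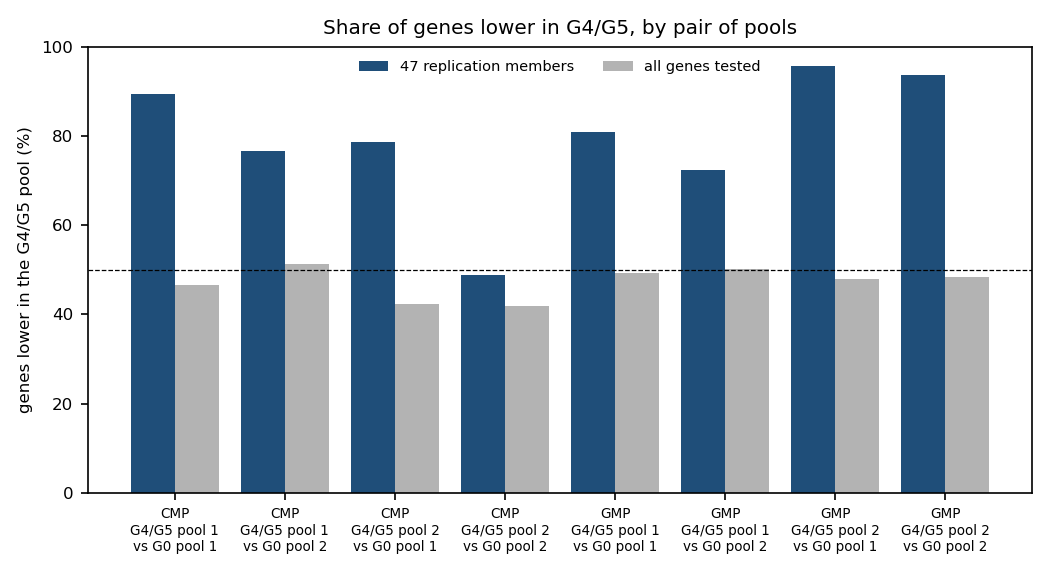
Bars give the percentage of genes with a lower value in the G4/G5 pool than in the G0 pool, for each of the 8 pairs of pools within a cell type, in blue for the 47 members and in grey for all genes tested; the dashed line marks an even split. The blue bars stand above the grey ones in all 8 pairs, with the lowest blue bar, 23 of 47 members against 41.8% of all genes, for pool 2 against pool 2 in CMP.

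Among the 6 subunits of the origin recognition complex, which marks origins, the median difference was -0.11 in CMP and -0.16 in GMP. Orc1, an ATPase subunit, gave 105 and 54 in the CMP pools of G0, 50.2 and 70.1 in those of G4/G5, 110.0 and 102 in the GMP pools of G0 and 75.7 and 82.5 in those of G4/G5. The 2 G0 CMP pools of Orc1 lay far apart, so the CMP groups overlapped, while both G4/G5 GMP pools were below both G0 GMP pools. Orc4, another ATPase subunit, gave 237 and 170.4 for G0 and 213 and 179.7 for G4/G5 in CMP, and 199 and 217 for G0 and 193 and 168 for G4/G5 in GMP, with overlap in CMP and lower values in G4/G5 GMP. Orc5 went the other way from most members, with 249.8 and 277 in the CMP pools of G0, 353 and 277 in those of G4/G5, 188 and 218 in the GMP pools of G0 and 265 and 237 in those of G4/G5. It was higher in G4/G5 in both cell types without overlap, though in CMP by less than the rounding for the pools of number 2, by 0.24 ± 0.17 (SE) in CMP and 0.29 ± 0.17 in GMP, and did not pass (adjusted p = 0.553 and 0.66, limma). The remaining subunits, Orc2, Orc3 and Orc6, ranged from -0.42 to -0.06 in CMP and from -0.27 to 0.03 in GMP.

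Licensing itself rests on the loaders Cdc6 and Cdt1, and on geminin, the inhibitor of Cdt1 encoded by Gmnn. Cdc6 gave 365 and 280.5 for G0 and 249 and 318 for G4/G5 in CMP, and 533 and 429 for G0 and 358 and 389 for G4/G5 in GMP. Its groups overlapped in CMP and not in GMP, where G4/G5 was lower by 0.35 ± 0.19 on the log2 scale. For Cdt1 the signals were 2093 and 1623 in the CMP pools of G0, 1422 and 1872 in those of G4/G5, 2476 and 2435 in the GMP pools of G0 and 2599 and 2528 in those of G4/G5. In GMP both G4/G5 pools of Cdt1 lay slightly above both G0 pools, at 0.06 ± 0.17, and in CMP the pools overlapped. Gmnn was measured at 948 and 715 for G0 and 709 and 711 for G4/G5 in CMP, and 1472 and 1290.1 for G0 and 1395 and 1099.9 for G4/G5 in GMP. The G4/G5 CMP pools of Gmnn lay just under the lower G0 CMP pool, and the GMP pools overlapped.

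MCM2-7 is the ring of 6 subunits that unwinds DNA at the fork. All 6 were below 0 in CMP, with a median of -0.39, and 5 of 6 in GMP, with a median of -0.17. All 6 had their lowest signal of the 8 arrays in G4/G5 CMP pool 1. Mcm2 gave 780.3 and 818 in the CMP pools of G0, 407 and 823 in those of G4/G5, 799 and 758 in the GMP pools of G0 and 638 and 645 in those of G4/G5. On this probe set, Mcm2 in CMP was thus low on 1 G4/G5 array, while the other lay at the G0 level. The dimmer probe set of Mcm2 gave 802 and 728 for G0 and 344 and 623 for G4/G5 in CMP. There both G4/G5 pools lay below both G0 pools, at -0.71. Mcm5 gave 2845 and 2139.8 for G0 and 1657 and 2048 for G4/G5 in CMP, and 3389 and 3081 for G0 and 2787 and 2688 for G4/G5 in GMP, lower in G4/G5 without overlap in both cell types. A less bright probe set of Mcm5 gave -0.29 in CMP, with overlapping pools, and -0.38 in GMP. The dimmest gave -0.42 in CMP and 0.32 in GMP, so the probe sets disagree in GMP. For Mcm7 the signals of 3967 and 3836 in the CMP pools of G0, 3070.4 and 4048 in those of G4/G5, 3996 and 4026 in the GMP pools of G0 and 4197 and 3952 in those of G4/G5 overlapped in both, at -0.15 ± 0.14 in CMP and 0.02 ± 0.14 in GMP. Mcm3, Mcm4 and Mcm6 ranged from -0.45 to -0.33 in CMP and from -0.18 to -0.12 in GMP.

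The factors that turn the loaded ring into a working helicase are Mcm10, Cdc45 and the 4 GINS subunits. All 6 were below 0 in both cell types, with medians of -0.34 in CMP and -0.29 in GMP. Cdc45 gave 142 and 129 for G0 and 133 and 134 for G4/G5 in CMP, and 293 and 246 for G0 and 239 and 221 for G4/G5 in GMP. Its CMP pools differed hardly at all between genotypes, at -0.02 ± 0.15, and both G4/G5 GMP pools were below both G0 GMP pools, at -0.22 ± 0.15. Gins2, a GINS subunit, gave 228 and 255 in the CMP pools of G0, 163 and 223 in those of G4/G5, 327 and 374 in the GMP pools of G0 and 265 and 265 in those of G4/G5, lower without overlap in both cell types. A dimmer probe set of Gins2 gave -0.11 in CMP, with overlapping pools, and -0.29 in GMP, without overlap. Mcm10, Gins1, Gins3 and Gins4 ranged from -0.46 to -0.09 in CMP and from -0.36 to -0.12 in GMP.

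The polymerases and primase held the 3 largest CMP differences, those of Pold3, Pold1 and Pola1. For each of these 3 the lowest CMP signal was that of G4/G5 pool 1, where neutrophil transcripts were high. All 9 polymerase and primase genes were below 0 in both cell types, with medians of -0.33 in CMP and -0.17 in GMP. Pola1 had signals of 651 and 581 for G0 and 319.8 and 488 for G4/G5 in CMP, and 561 and 481 for G0 and 382 and 335 for G4/G5 in GMP. Both G4/G5 pools lay below both G0 pools in each cell type, by 0.63 ± 0.20 in CMP (adjusted p = 0.311, limma) and by 0.52 ± 0.20 in GMP (adjusted p = 0.613), and it did not pass in either. Pold3, an accessory subunit of polymerase delta, had 672 and 473 in the CMP pools of G0, 269 and 416 in those of G4/G5, 429 and 464 in the GMP pools of G0 and 298 and 293 in those of G4/G5. The pools of Pold3 were likewise separate, with -0.73 ± 0.23 in CMP (adjusted p = 0.306) and -0.58 ± 0.23 in GMP (adjusted p = 0.613). A less bright probe set of Pold3 gave -0.32 in GMP and the dimmest gave 0.19, so its probe sets disagree there, while all 3 were below 0 in CMP. Pold1, the catalytic subunit of polymerase delta, gave 652 and 556 for G0 and 284 and 479 for G4/G5 in CMP, and 605 and 572 for G0 and 523 and 498 for G4/G5 in GMP. Its groups did not overlap in either cell type, with -0.69 ± 0.22 in CMP (adjusted p = 0.31) and -0.20 ± 0.22 in GMP. A dimmer probe set of Pold1 gave only -0.24 in CMP and -0.13 in GMP, with overlapping pools in both. Prim1, the catalytic subunit of primase, gave 1079.6 and 962 in the CMP pools of G0, 702 and 927 in those of G4/G5, 947 and 974 in the GMP pools of G0 and 983 and 906 in those of G4/G5, lower in G4/G5 CMP without overlap and overlapping in GMP. A dimmer probe set of Prim1 overlapped in CMP too, at -0.04, with 734 and 743 for G0 and 511 and 1000 for G4/G5. Pole, the catalytic subunit of polymerase epsilon, gave 319 and 398 for G0 and 246 and 383 for G4/G5 in CMP, and 306 and 349 for G0 and 332 and 273 for G4/G5 in GMP, with overlap in both. Pola2, Prim2, Pold2 and Pole2 ranged from -0.39 to -0.15 in CMP and from -0.18 to -0.15 in GMP.

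Within the sliding clamp and its loader, Pcna and Rfc2 lay higher in G4/G5 than in G0 in CMP and lower in GMP. Pcna, the clamp, gave 5162 and 4930.2 in the CMP pools of G0, 5195 and 5897 in those of G4/G5, 6213 and 5587 in the GMP pools of G0 and 5307 and 4947 in those of G4/G5. It was higher in G4/G5 CMP by 0.13 ± 0.11 and lower in G4/G5 GMP by 0.20 ± 0.11, without overlap in either. Rfc2, a loader subunit, followed the same course, with 521 and 582 for G0 and 715 and 664 for G4/G5 in CMP, and 569 and 599 for G0 and 509 and 502 for G4/G5 in GMP. Its difference was 0.32 ± 0.12 in CMP and -0.20 ± 0.12 in GMP, but its other probe sets, 2 in number, did not share the sign in CMP. Rfc3, another loader subunit, gave 282 and 199.7 in the CMP pools of G0, 195 and 210.0 in those of G4/G5, 338 and 335 in the GMP pools of G0 and 283 and 255 in those of G4/G5, overlapping in CMP and lower in G4/G5 GMP. Rfc1, Rfc4 and Rfc5 ranged from -0.30 to -0.24 in CMP and from -0.26 to 0.04 in GMP. RPA, which coats single-stranded DNA, had medians of -0.14 in CMP and -0.20 in GMP over its 3 subunits. Rpa2, the subunit phosphorylated under replication stress, gave 536 and 448 for G0 and 413 and 475 for G4/G5 in CMP, and 688 and 644 for G0 and 617 and 542 for G4/G5 in GMP, with overlap in CMP and lower values in G4/G5 GMP.

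Okazaki fragments are trimmed by the flap nuclease Fen1 and sealed by DNA ligase 1. Lig1 had closely matching pools, at 726 and 708 in the CMP pools of G0, 569.5 and 568 in those of G4/G5, 816 and 812 in the GMP pools of G0 and 639.6 and 602 in those of G4/G5. Both G4/G5 pools lay below both G0 pools in each cell type, by 0.33 ± 0.11 in CMP (adjusted p = 0.319) and 0.39 ± 0.11 in GMP (adjusted p = 0.595), and it did not pass. Fen1 gave 933 and 639.6 for G0 and 509 and 760.3 for G4/G5 in CMP, and 1512 and 1144 for G0 and 1127 and 1039 for G4/G5 in GMP. Its CMP pools overlapped, and its G4/G5 GMP pools lay just below the lower G0 GMP pool.

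Ribonucleotide reductase makes deoxynucleotides from its large subunit Rrm1 and small subunit Rrm2, Tk1 salvages thymidine, and Dut removes dUTP. Rrm1 gave 1340.0 and 1161 in the CMP pools of G0, 885 and 954 in those of G4/G5, 1353 and 1437 in the GMP pools of G0 and 1299 and 1140.1 in those of G4/G5. It was lower without overlap in both cell types, and its CMP difference of -0.44 ± 0.13 had the smallest p of the members there, without passing (adjusted p = 0.289). A dimmer probe set of Rrm1 gave -0.38 in CMP, with overlapping pools, and -0.33 in GMP, without overlap. Rrm2 gave 1211 and 914 for G0 and 920.4 and 932 for G4/G5 in CMP, and 2348 and 1781 for G0 and 1826 and 1538 for G4/G5 in GMP, overlapping between genotypes in both. Tk1 gave 243 and 266 in the CMP pools of G0, 284 and 253 in those of G4/G5, 486 and 507 in the GMP pools of G0 and 450.0 and 325 in those of G4/G5. The CMP pools of Tk1 overlapped, and its G4/G5 GMP pools were lower by 0.37 ± 0.17 (adjusted p = 0.633). Dut gave 1976 and 1469 for G0 and 1412 and 1616 for G4/G5 in CMP, and 2510.4 and 2209.9 for G0 and 2120.2 and 1831 for G4/G5 in GMP, overlapping in CMP and lower in G4/G5 GMP.

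Behind the fork, Chaf1b helps deposit histones, and Uhrf1 reads hemimethylated DNA. Chaf1b gave 196 and 233 in the CMP pools of G0, 171 and 207 in those of G4/G5, 213 and 214 in the GMP pools of G0 and 234 and 190.5 in those of G4/G5, overlapping in both cell types. Uhrf1 gave 962 and 895 for G0 and 508 and 786 for G4/G5 in CMP, and 1356 and 1209.7 for G0 and 843 and 850.3 for G4/G5 in GMP. Both G4/G5 pools of Uhrf1 were below both G0 pools in each cell type, with -0.55 ± 0.19 in CMP (adjusted p = 0.319) and -0.59 ± 0.19 in GMP (adjusted p = 0.595). Its dimmer probe set gave -0.64 and -0.38.

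**Figure D3:**
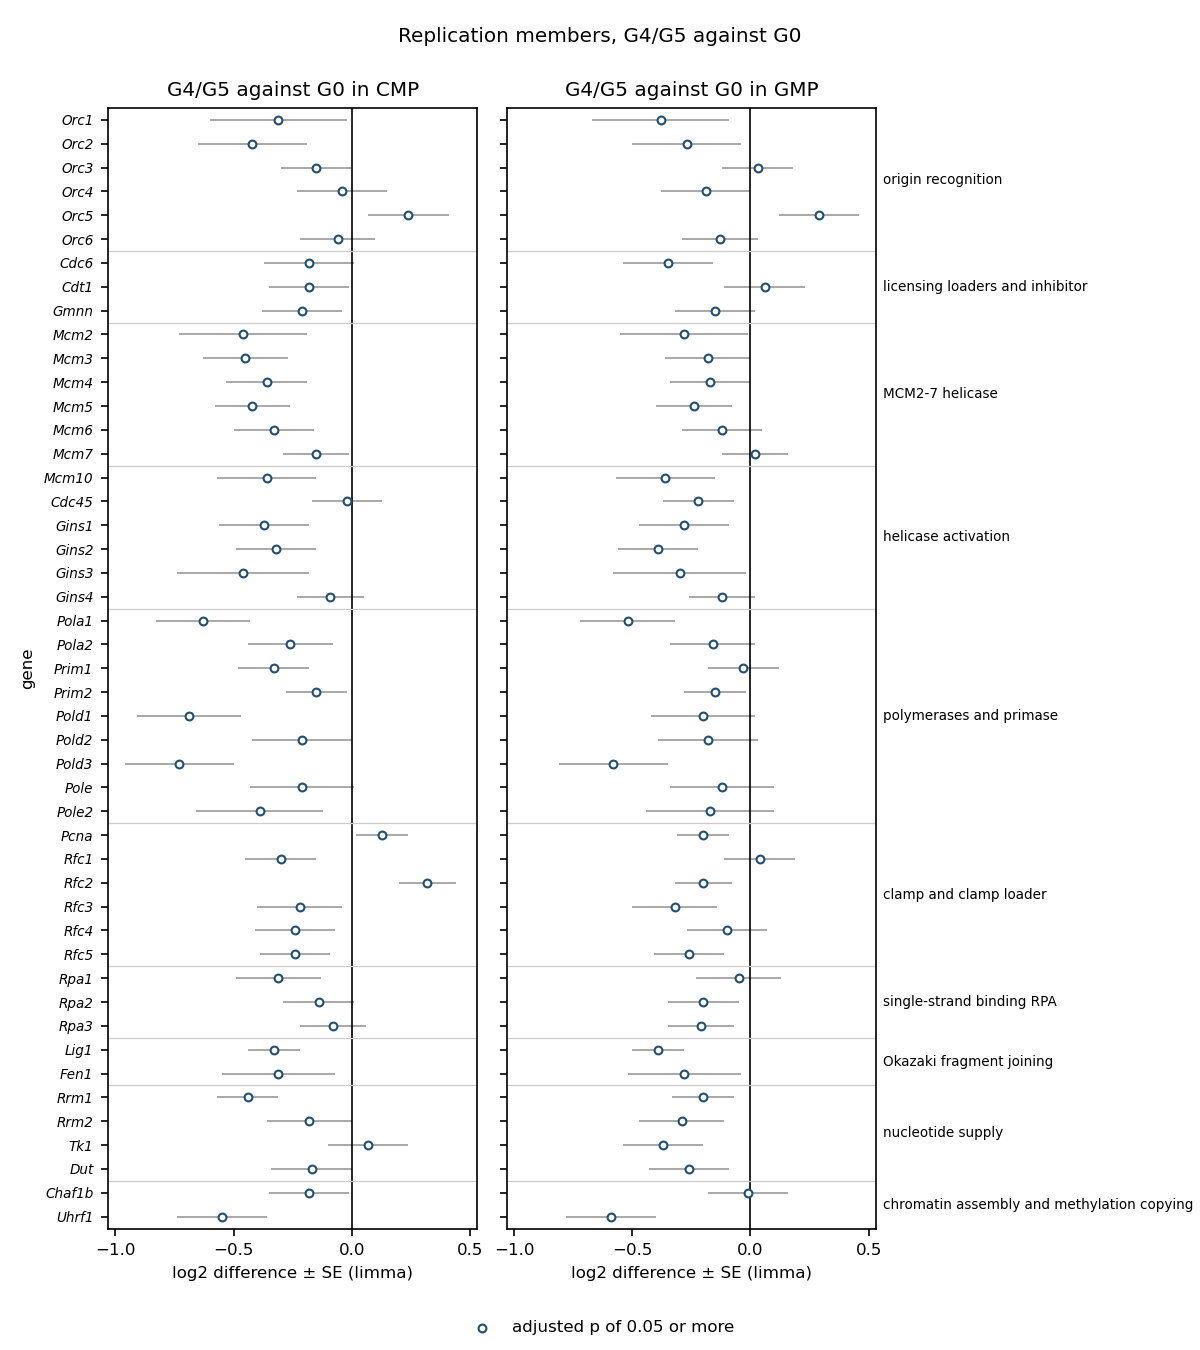
Points give the log2 difference of G4/G5 from G0 for each of the 47 members, with CMP on the left and GMP on the right, and bars are 1 standard error of the limma fit over 8 arrays; open points did not pass an adjusted p of 0.05, which no member did. Points lie left of 0 for 43 members in CMP and 42 in GMP, with Orc5 to the right in both.

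With the CMP and GMP effects averaged, 45 of 47 members were below 0 (46.1% of all genes), with a median of -0.21 against 0.02. None passed in limma, where 3 genes (0.0338%) did, and 12 were lower at an unadjusted p under 0.05 (6.65% of all genes). The smallest p-values belonged to Lig1 at -0.36 ± 0.08 (adjusted p = 0.175), Uhrf1 at -0.57 ± 0.14, Pold3 at -0.66 ± 0.16 and Pola1 at -0.58 ± 0.14 (adjusted p = 0.187 for all 3). Rrm1 followed at -0.32 ± 0.09 (adjusted p = 0.2) and Gins2 at -0.36 ± 0.12 (adjusted p = 0.219). Without G4/G5 CMP pool 2, 10 members passed as lower, where 7.52% of all genes did.

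The GMP effect minus the CMP effect was above 0 for 28 of 47 members (45.1% of all genes), with a median of 0.06. No member and no gene (0%) passed in limma, and at an unadjusted p under 0.05 there was 1 member, against 3.97% of all genes. That member was Rfc2, at -0.52 ± 0.18 (adjusted p = 0.994). Pcna at -0.33 ± 0.16, Tk1 at -0.44 ± 0.24, Rfc1 at 0.33 ± 0.21, Pold1 at 0.49 ± 0.31 and Prim1 at 0.31 ± 0.22 came next, each with the same adjusted p. The other probe sets of Rfc2 gave genotype effects of -0.07 and -0.15 in CMP and -0.03 and 0.13 in GMP. They thus did not share the direction of the chosen one. The median moved from -0.08, without pool 1 of G0 CMP or of G4/G5 CMP, to 0.27 with pool 2 of G4/G5 CMP left out. A difference between the cell types in the genotype effect was therefore not detectable with these 8 arrays.

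A few replication transcripts, of helicase activation, nucleotide supply and licensing, passed as higher in GMP than in CMP. The RPA subunit Rpa1 passed in G4/G5 alone. It was higher without overlap in G0 GMP too, at 0.43 ± 0.18, but did not pass there (adjusted p = 0.123, limma). In G0, 4 members (8.51%) rose from CMP to GMP and 0 fell, where 10.6% of all genes rose and 10.2% fell. They were Rrm2 at 0.95 ± 0.18 (adjusted p = 0.0117, limma), Cdc45 at 0.94 ± 0.15 (adjusted p = 0.00702), Tk1 at 0.94 ± 0.17 (adjusted p = 0.0106) and Gmnn at 0.74 ± 0.17 (adjusted p = 0.0219). The members' share is thus near that of all genes. The members' median was 0.23 against -0.02, and 37 were above 0 (48.7% of all genes). Both GMP pools lay above both CMP pools for 27 members (32.2%) and below for 3 (33.1%), which were Orc5, Pola1 and Pold3. The other probe sets of Pold3 gave 0.01 and 0.06 in place of -0.33.

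In G4/G5, 5 members (10.6%) rose from CMP to GMP and 0 fell, where 4.18% of all genes rose and 6.29% fell. Rrm2 at 0.85 ± 0.18 (adjusted p = 0.0272), Gmnn at 0.79 ± 0.17 (adjusted p = 0.0284) and Cdc45 at 0.74 ± 0.15 (adjusted p = 0.0227) passed in this genotype too. Rpa1, the large subunit of RPA, rose by 0.69 ± 0.18 (adjusted p = 0.0464) and Cdt1 by 0.65 ± 0.17 (adjusted p = 0.0431). Rpa1 had signals of 1723 and 1252 in the CMP pools of G0, 1115 and 1261 in those of G4/G5, 2171 and 1805 in the GMP pools of G0 and 2079.5 and 1766 in those of G4/G5. The dimmer probe set of Rpa1 gave a smaller rise in G4/G5, of 0.34, and a rise of 0.55 in G0. The median was 0.38 against -0.04, and 40 members were above 0 (46.3% of all genes). The groups did not overlap for 30 members higher in GMP (27.7%) and for 2 lower (33%), Orc5 and Rfc2. In both genotypes 25 members were higher in GMP without overlap, against 20.4% of all genes. Tk1 passed in G0 alone, and Rpa1 and Cdt1 in G4/G5 alone, but the test of the difference between genotypes gave an adjusted p of 0.994 for each.

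The pools of the 3 genes called in both genotypes were well separated. For Cdc45, CMP signals were between 129 and 142 in both genotypes and GMP signals between 221 and 293. The lowest GMP signal of Rrm2 was 1538 and its highest CMP signal 1211, and its other probe sets gave differences of 0.89 and 1.69 for G0 and of 1.03 and 1.35 for G4/G5. Gmnn reached at most 948 in CMP and at least 1099.9 in GMP. By role, the median log2 difference in G0 and in G4/G5 was 0.70 and 0.45 for nucleotide supply, 0.57 and 0.65 for Cdc6, Cdt1 and Gmnn, 0.50 and 0.46 for helicase activation, and 0.43 and 0.38 for RPA. MCM2-7 stood at 0.00 and 0.19 and the polymerases at -0.03 and 0.23. The MCM ring and the polymerases thus had smaller medians than the factors that activate the ring, a difference that was not tested. The calls depended on single arrays. In G0, 0 members passed with G0 GMP pool 1 left out, where 0.754% of all genes did, and 2 (Cdc45 and Rrm2) with G0 GMP pool 2 left out, where 4.9% did. There were 13 with G0 CMP pool 1 left out (18.2% of all genes), and 11 with pool 1 or with pool 2 of G4/G5 CMP left out (28.7% and 28.5%). In G4/G5, 0 passed with pool 1 or with pool 2 of G4/G5 GMP left out (0.731% and 1.18% of all genes), and 2 (Cdc45 and Rrm2) with either pool of G0 GMP left out (4.39% and 4.43%). There were 8 with pool 2 of G4/G5 CMP left out (6.84%), and 9 higher and 1 lower, Rfc2, with either pool of G0 CMP left out (14.4% and 14.5%). Without G4/G5 CMP pool 1, where neutrophil transcripts were high, 4 members passed in G4/G5 (Cdc45, Gmnn, Rfc4 and Rrm2; 16.1% of all genes) with a median of 0.16.

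**Figure D4:**
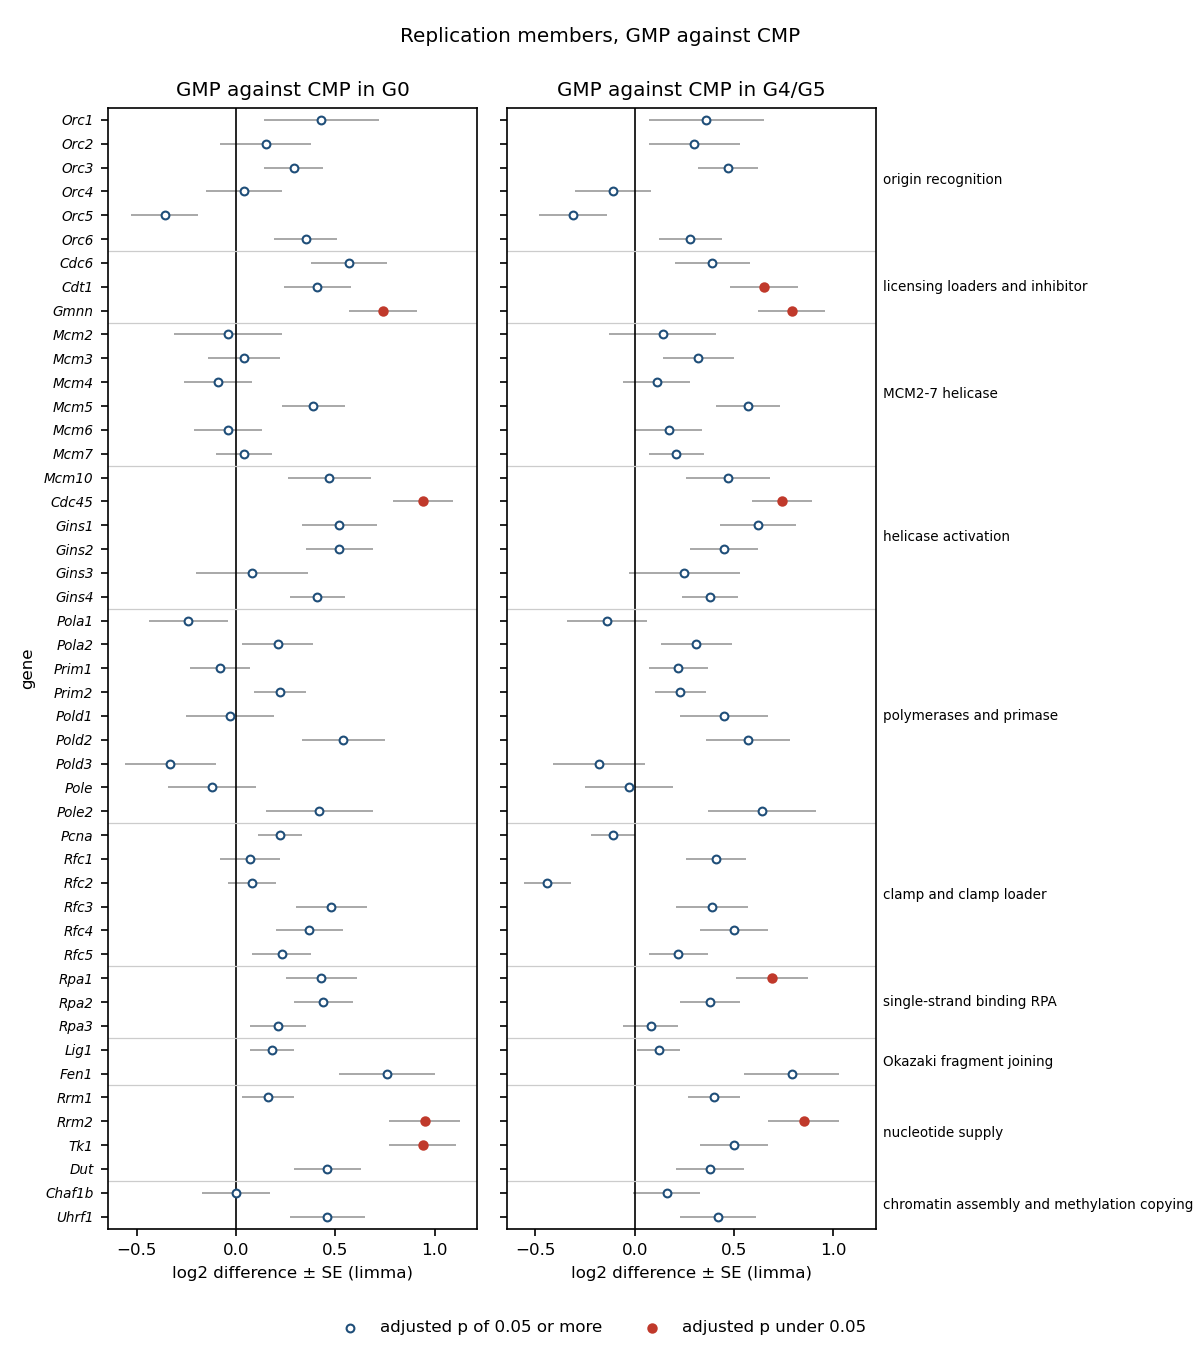
Points give the log2 difference of GMP from CMP for each of the 47 members, within G0 on the left and within G4/G5 on the right, and bars are 1 standard error of the limma fit; filled red points passed an adjusted p of 0.05. Cdc45, Gmnn and Rrm2 are filled in both panels, Tk1 in G0, and Cdt1 and Rpa1 in G4/G5.

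**Figure D5:**
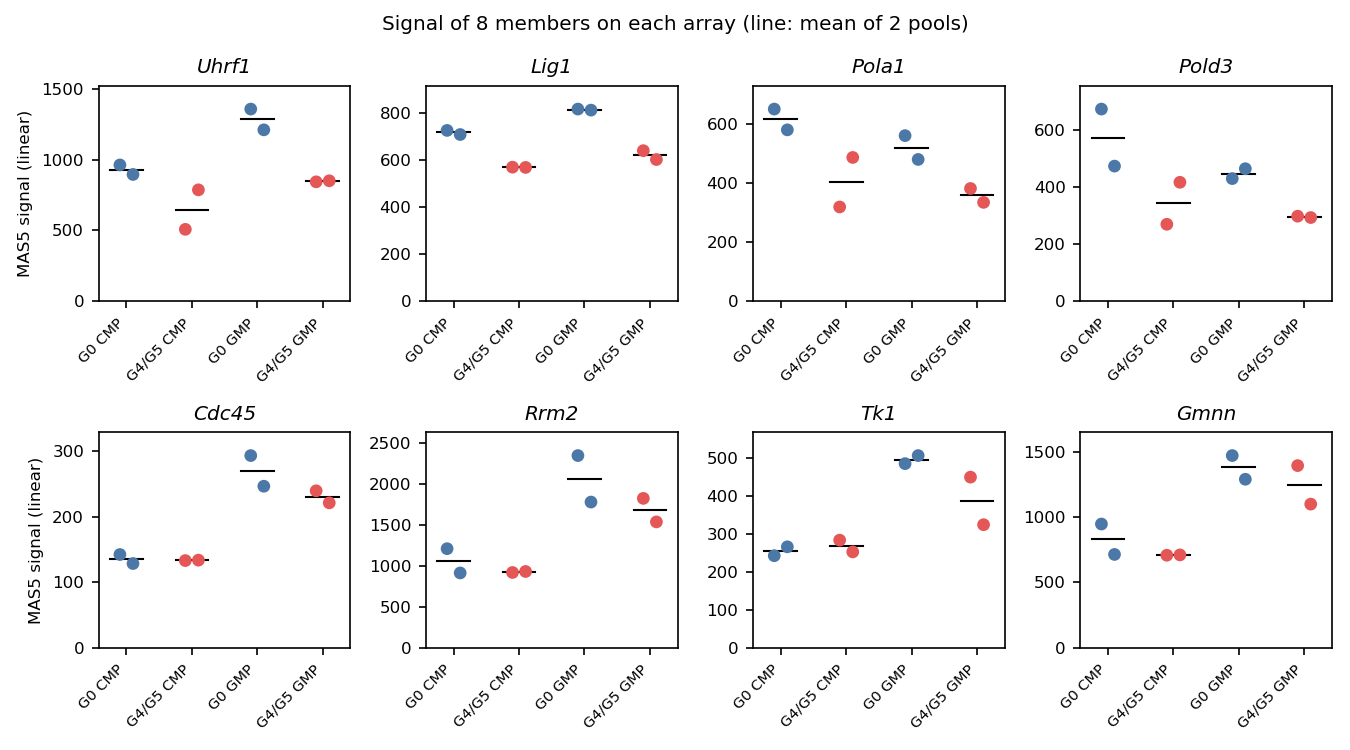
MAS5 signal on a linear axis from 0 for 8 members, with 1 point per array in blue for G0 and red for G4/G5, and a line at the mean of the 2 pools. In the upper row, Uhrf1, Lig1, Pola1 and Pold3 have both red points below both blue points in each cell type, and in the lower row Cdc45, Rrm2, Tk1 and Gmnn are higher in GMP than in CMP.

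Members with and without the E2F core of the promoters shown above had these differences. In CMP the median of G4/G5 against G0 was -0.33 for the 23 members tested with a core and -0.22 for the 16 without, and in GMP it was -0.20 and -0.26. For GMP against CMP the G0 medians were 0.16 and 0.43 and the G4/G5 medians 0.38 and 0.37. These are descriptions and were not tested.

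Other genes of the pathway were read from 3 further lists. Their counts at an unadjusted p under 0.05 are to be read against 13.4% of all genes in CMP and 7.87% in GMP, and those that rose from CMP to GMP against 10.6% of all genes in G0 and 4.18% in G4/G5. Of 38 replication factors outside the members, 36 were tested, and 27 of them lay below 0 in CMP (median -0.22) and 27 in GMP (median -0.12), with 0 passing in limma and 6 and 3 at an unadjusted p under 0.05. Pold4, the small subunit of polymerase delta, was above 0 in CMP at 0.93 ± 0.26 (adjusted p = 0.277), and Dscc1, of the alternative clamp loader, was at -0.59 ± 0.17 (adjusted p = 0.279). The 3 in GMP were topoisomerase Top2a at -0.40 ± 0.15, the helicase Recql at 0.46 ± 0.18 and Pclaf, which binds PCNA, at -0.38 ± 0.16 (adjusted p = 0.603, 0.613 and 0.613). From CMP to GMP in G0, 3 of the 36 rose, namely Pclaf at 0.84 ± 0.16, Tipin at 0.52 ± 0.13, of the fork protection complex, and Asf1b at 0.48 ± 0.15, a histone chaperone. In G4/G5 the 4 that rose were Tipin at 0.79 ± 0.13, the nuclease Dna2 at 0.86 ± 0.16, Wdhd1 at 0.65 ± 0.15, which tethers polymerase alpha to the helicase, and Nasp at 0.81 ± 0.20, a histone chaperone.

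Of 22 further enzymes of nucleotide synthesis, 20 were tested, with 16 below 0 in CMP (median -0.19) and 15 in GMP (median -0.30), and 0 passing in limma, with 1 and 3 at an unadjusted p under 0.05. In CMP this was Dck, which phosphorylates deoxycytidine, at -0.49 ± 0.15 (adjusted p = 0.306). In GMP they were Nme1, a nucleoside diphosphate kinase, at -1.14 ± 0.27, Mthfd2, a folate enzyme, at -0.74 ± 0.22 (both adjusted p = 0.595) and Atic, a purine enzyme, at -0.39 ± 0.17 (adjusted p = 0.618). From CMP to GMP in G0, 6 of the 20 rose, among them the purine enzymes Gart at 0.88 ± 0.17 and Pfas at 0.80 ± 0.18, the pyrimidine enzyme Dhodh at 0.81 ± 0.14 and Mthfd2 at 0.87 ± 0.22. In G4/G5, Gart rose by 1.02 ± 0.17 and Pfas by 0.86 ± 0.18, and Nme1 fell by 1.20 ± 0.27, where 6.29% of all genes fell. Of 19 E2F and G1/S regulators, 18 were tested, and 13 were below 0 in each cell type, with 0 passing in limma and 3 and 1 at an unadjusted p under 0.05. The 3 in CMP were E2f3 at -0.60 ± 0.22, Rbl1, a pocket protein, at -0.46 ± 0.17 and Ccne2 (cyclin E2) at -0.72 ± 0.29 (adjusted p = 0.321, 0.321 and 0.344). E2f2, an activating E2F, was above 0 in GMP at 0.84 ± 0.24 (adjusted p = 0.595), with 41.2 and 31.1 for the G0 pools and 78.4 and 65.9 for the G4/G5 pools. From CMP to GMP in G0, Mybl2 rose by 0.93 ± 0.18, Ccne1 (cyclin E1) by 1.37 ± 0.28 and E2f1 by 0.70 ± 0.18, and Rbl2, a pocket protein of resting cells, fell by 0.79 ± 0.18, and in G4/G5 none of the 18 passed, with 9 at an unadjusted p under 0.05 (29.4% of all genes).

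Where a member had more than 1 probe set past the filter, the others were compared with the one chosen. There were 28 such members with 41 further probe sets. Of these 41, 38 shared the sign of the chosen probe set for G4/G5 against G0 in CMP and 29 in GMP, and 26 and 36 did for GMP against CMP in G0 and in G4/G5. The 2 members that did not agree throughout in CMP were Rfc2 and Rpa1. In GMP they were Orc2, Orc4, Cdt1, Mcm3, Mcm5, Mcm7, Pold3, Rfc1 and Rfc2.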

How the data were processed

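Per the labels' protocols, RNA of sorted CMP and GMP was extracted with Trizol, and 5 to 10 ng was amplified, labelled with biotin and hybridised to 8 Affymetrix Mouse 430 2.0 arrays. The deposited values are linear intensities of 45101 probe sets, made by the authors with MAS5 (per the submitters' processing notes) and scaled to a target of 100 (per the series text). Every array's mean, after trimming 2% at each end, was 100.001. The number of arrays limits the precision.

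The 64 control probe sets were left out. By the platform annotation, 34945 probe sets carry 1 symbol, 932 carry several and 9160 carry none. Of the first, 34741 matched the reference gene table (GRCm38.p6), and no symbol needed updating. Genes were kept where such a probe set reached 50 on at least 2 arrays. The probe set with the highest mean stood for the gene, and 8886 genes remained. On log2(signal + 10), limma 3.58.1 in R 4.3.3 fitted 1 mean per group over 8 arrays (4 residual degrees of freedom), with trended empirical Bayes moderation, Benjamini-Hochberg adjustment over all genes tested and a threshold of 0.05. The fit was tested on simulated data. Summaries and plots used Python 3.11.15, pandas 2.3.3 and matplotlib 3.10.9.

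The members and lists were chosen with earlier results of these data known. Values on every array are given for 26 members that stand for the roles and for Orc5, Pold3, Rfc2 and Rpa1. In each comparison the members that passed are named (up to 6 in each direction), or, where under 4 passed, the 6 with the smallest unadjusted p. Of the other lists, up to 4 passing or smallest-p genes are named. Orc5 was added after its values were seen. Alternatives were the pseudocount, the signal filter, quantile normalization, median centring, the choice of probe sets, the intensity trend, the arrays in the fit, the pool number as a block, and each array left out.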

Additional observations from a re-analysis of the deposited data

How the results depend on the processing

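Of the 236 alternative values of the members' medians and counts of calls, 209 had a similar count or a similar median. A median was taken as similar if it moved by less than 0.13, the pooled SD between pools within groups (log2). That is wide beside these medians. By this rule a CMP median of -0.13, without G4/G5 CMP pool 1, was similar to the -0.24 of the main fit. A similar count could still differ by some calls and in the genes called. Part of the 236 could not change. Neither a block nor the intensity trend alters a median, and neither does an array outside the groups compared. The median of the difference of effects, 0.06, changed sign with some arrays left out. Leaving out 1 array gave ranges of -0.39 to -0.10 for the CMP median and 0 to 7 members called, 0 to 10 called for the mean of both effects, and -0.08 to 0.27 for the median of the difference of effects. For GMP against CMP in G0 the range was 0 to 13 members called with a median of 0.16 to 0.38, and in G4/G5 it was 0 to 10 with 0.16 to 0.46. With a fit on the 4 GMP arrays alone, 3 members were called lower in G4/G5 (Pola1, Pold3 and Uhrf1), where 4.05% of all genes were called in either direction. For GMP against CMP, averaging all probe sets of a gene gave 8 calls in G0 (20.9% of all genes). In G4/G5 there was 1 call with no signal filter (Cdc45), where 2.7% of all genes passed. There were 3 with quantile normalization and 3 with no intensity trend (Cdc45, Gmnn and Rrm2 each time), where 8.68% and 8.56% passed. With only the 4 arrays compared there were 2 (Gmnn and Rrm2), where 4.82% passed. The cause of these changes was not tested. Pool number as a replicate block left 0 members called for G4/G5 against G0. For GMP against CMP it gave 6 calls within cell type and 5 with shared numbers in G0, where 26.5% and 23.6% of all genes passed. In G4/G5 it gave 5 and 6, where 16.5% and 13.8% passed. The block is balanced over the groups, so it could not change a median. Same-numbered pools correlated in their deviations by 0.25 in CMP and 0.14 in GMP between genotypes, and by 0.22 in G0 and 0.03 in G4/G5 between cell types, and the labels state only matching of age and sex. Tyms was tested only with no signal filter, and did not pass. Probe-level background was not used here, so how far dim signals lie above it is unknown.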
